A study of Mus musculus with 6 samples.

Results

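The collagen genes of the mouse optic nerve and its sheath were read out in total RNA. Members were taken from the deposited gene table as protein-coding genes whose whole symbol is Col, a number, a and a number, leaving out genes that span more than 500000 bases. This gave 44 of 52636 listed genes, or 44 of 22027 protein-coding ones, and the limit on span removed 0 of them. Of the 44, 11 encode fibrillar chains, 6 basement membrane chains, 6 beaded filament chains, 9 chains of fibril-associated collagens, 3 short-chain network collagens, 2 multiplexins, 4 transmembrane collagens and 3 anchoring or other collagens.

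The data are 6 libraries of ribosomal-RNA-depleted, stranded total RNA from optic nerve. In 3 of them the treatment label is mCherry, the name of a red fluorescent protein. In the other 3 it is Mutant human ND6T14484C, here called hND6, which names a mutant form of the ND6 chain of complex I, the first enzyme of the respiratory chain. Per the labels, lentivirus with the mutant human gene was injected into the eye, and this text stands beside both groups, so that what the mCherry group received is known only from its name. Strain, age and the time after injection are not given in the sources used here. It is not stated either whether each library is a separate animal, and the spread that enters the p-values is the one between libraries, which may in part be technical. The values are FPKM, fragment counts scaled to exon length and library size, and between about 20253600 (hND6 2) and 34758900 (mCherry 2) reads lay in genes. In these bulk samples fewer cells of a type and less RNA per cell cannot be told apart.

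Collagens are triple helices of chains, each a long repeat of triplets that start with glycine. The fibrillar types I, III and V build the fibres of connective tissue, type IV forms the sheet inside basement membranes, and type VI forms fine beaded filaments beside cells. In the optic nerve the fibrous collagens lie in the meningeal sheath and in the septa that divide the nerve into bundles, and basement membranes line the vessels and the outer surface of the astrocytes. Chains are hydroxylated and folded in the endoplasmic reticulum, trimmed outside the cell, crosslinked, and bound by proteoglycans and cell receptors.

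The repeat that defines the family can be read in the coding sequence. Every member was matched to a GENCODE transcript. For 32 of the 44 the gene has the same start and end there as in the deposited gene table, and Col1a2 and Col6a2 are among those that differ. From the matched transcripts 54 coding bases, which hold 18 codons, are shown for 4 chains that the results return to. Capitals mark a codon GGN for glycine that opens a triplet of an unbroken run of at least 5 triplets. The stretches of Col1a1 and Col1a2 are the start of the longest run, and those of Col4a1 and Col6a1 lie around its end.
Col1a1: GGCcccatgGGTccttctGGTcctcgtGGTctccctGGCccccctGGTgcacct
Col1a2: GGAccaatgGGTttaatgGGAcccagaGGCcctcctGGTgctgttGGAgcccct
Col4a1: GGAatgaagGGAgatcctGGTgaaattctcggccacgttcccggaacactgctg
Col6a1: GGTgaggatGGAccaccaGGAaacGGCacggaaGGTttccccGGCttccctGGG
In both type I chains the glycine codons keep their spacing through the whole stretch, in Col4a1 the repeat ends after 3 triplets, and in Col6a1 a triplet that lacks 1 codon shifts the frame of the repeat. The longest unbroken run was 338 triplets in Col1a1, 339 in Col1a2 and 344 in Col3a1. It was 40 triplets in Col4a1, whose coding sequence holds 22 runs of at least 5 triplets, and 87 in both Col6a1 and Col6a2.

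The exons carry the same repeat. Of the 2001 coding exons of the members 469 (23.4%) have exactly 54 bases, against 0.671% of the 196130 coding exons of all matched protein-coding genes. A length that is a multiple of 9, a whole number of triplets, was found for 61.7% of collagen exons and 14.5% of all. The fibrillar genes hold most of the exons of 54 bases, with 21 in Col1a1 and 33 in both Col24a1 and Col27a1, while the type IV genes have between 1 (Col4a2) and 3 (Col4a5). The members are also long genes: their median span on the chromosome was 110355 bases against 15601 for protein-coding genes, and their median exon length 5989 against 2599 bases.

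The 6 type IV genes lie in 3 pairs that point away from each other, and the letters between their starts are shown because the values below compare the partners. Sequences are from RefSeq (GRCm38.p6), and capitals mark GGGCGG on either strand, the word bound by Sp1-like factors. The starts of Col4a1 and Col4a2 overlap by 22 bases at chr8:11312805-11312826, read here in the sense of Col4a2. The starts of Col4a4 and Col4a3 are 126 bases apart at chr1:82586850-82586975, given in the sense of Col4a4. Those of Col4a6 and Col4a5 are 1308 bases apart on the X chromosome, and the 120 bases before Col4a6, at chrX:141474077-141474196, are given in its sense.
Col4a1/Col4a2: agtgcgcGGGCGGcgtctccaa
Col4a4/Col4a3: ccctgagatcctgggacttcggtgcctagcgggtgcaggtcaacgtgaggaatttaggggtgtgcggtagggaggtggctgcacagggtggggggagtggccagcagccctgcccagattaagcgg
Col4a6: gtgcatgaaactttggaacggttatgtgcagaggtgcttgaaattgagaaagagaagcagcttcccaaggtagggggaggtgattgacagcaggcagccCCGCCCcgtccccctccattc
Over the 250 bases before the start, GGGCGG was found on either strand in 22 of 38 promoter windows of 35 collagen genes (57.9%), against 32.7% of 32851 windows of all genes. The words CCAAT (34.2% against 33.8%) and TATAAA (13.2% against 12.4%) were found in collagen windows about as often as in all. No motif was tested for a role, and none of the 3 words was found in the letters between Col4a4 and Col4a3.

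The comparison of hND6 with mCherry asks whether the mutant gene's group differed in its collagen transcripts. None of the 37 collagens that averaged at least 0.5 FPKM passed the threshold. Each was tested with limma (moderated test with intensity trend on log2(FPKM + 0.5), fitted to 16157 genes, Benjamini-Hochberg adjusted p of 0.05), and the smallest adjusted p was 0.267, for Col12a1. The background was low as well, with 7 of 16157 genes called (0.0433%). An unadjusted p under 0.05 was reached by 2 of the 37, Col12a1 and Col2a1, against 15.2% of all genes tested. In the same 2 genes the groups did not overlap (22.8% of all genes tested): all 3 hND6 libraries lay above all 3 mCherry libraries, against 12.6% of all genes. In 0 members did all hND6 libraries lie below, against 10.2% of all genes.

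On the log2(FPKM + 0.5) scale 16 members had a difference above 0 and 21 below, from -0.72 for Col6a6 to 0.65 for Col8a2. The median was -0.0043 for collagens and -0.01 for all genes tested. The 95% interval of the difference on this scale lay within a 2-fold change either way for 32 of the 37. It reached beyond 2-fold for the other 5. For members of low FPKM the added 0.5 narrows these bounds, so a change in FPKM of more than 2-fold can lie inside the interval. All 44 collagen genes together summed to 408 ± 62.8 FPKM in mCherry and 422 ± 20.04 FPKM in hND6 (SD, n = 3 each; exact two-sided permutation p = 0.8, where 0.1 is the smallest possible). This was between 0.0910% and 0.118% of the summed FPKM of a library.

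**Figure D1:**
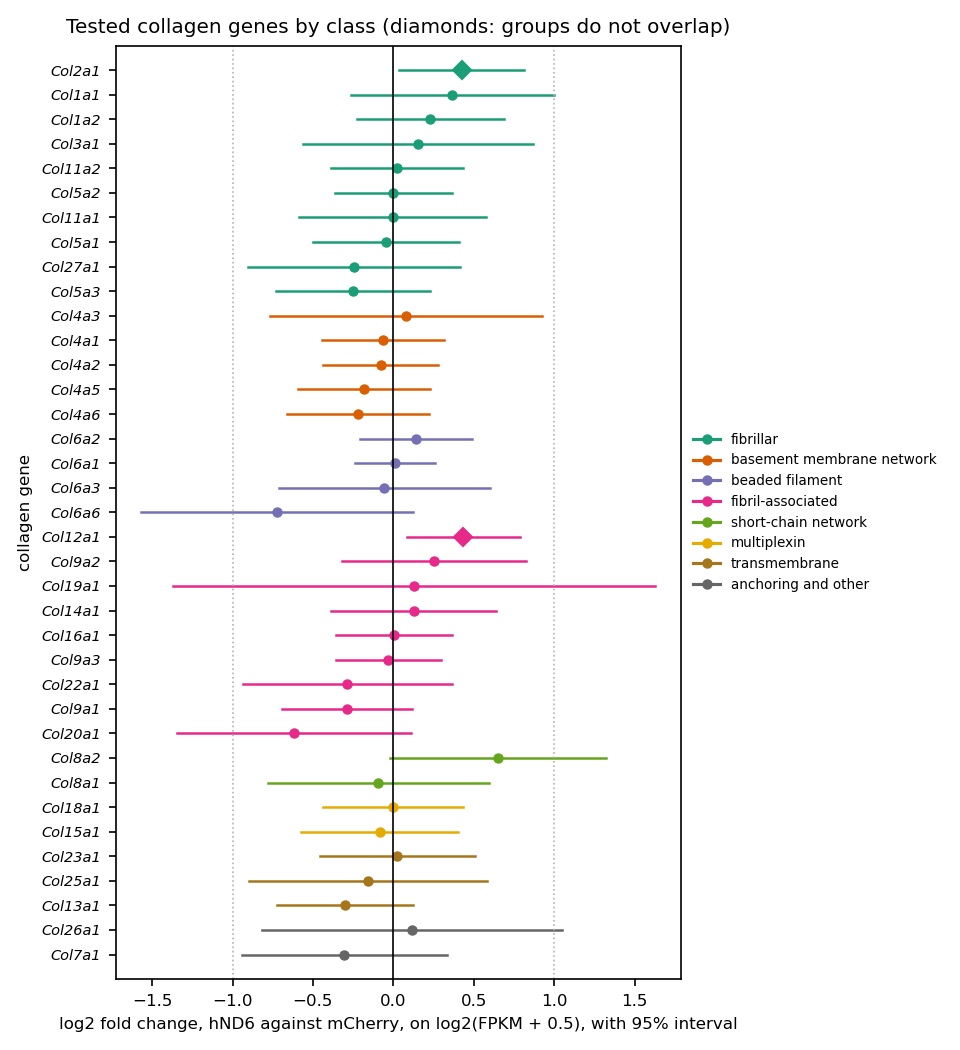
Log2 fold change of each of the 37 tested collagen genes, hND6 against mCherry on log2(FPKM + 0.5), on the x axis, with its 95% interval as a bar, grouped and coloured by class; diamonds mark genes whose groups do not overlap and dotted lines a 2-fold change. Points run from -0.72 (Col6a6) to 0.65 (Col8a2), and the 2 diamonds are Col2a1 and Col12a1.

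The fibrillar chains were the most abundant class, at 175 ± 46.4 summed FPKM in mCherry and 192 ± 10.7 in hND6, between 37.5% and 47.3% of all collagen FPKM. Type I collagen, the main fibre of sheath and tendon, is a trimer in which Col1a1 chains outnumber those of Col1a2. Col1a2 (chromosome 6, 4505493 to 4541544) stood at 38.7, 63.8 and 45.4 FPKM in mCherry 1 to 3 and at 59.8, 60.3 and 50.5 FPKM in hND6 1 to 3. Col1a1 (chromosome 11, 94936224 to 94953042) stood at 22.0, 48.1 and 31.7 FPKM in mCherry and at 41.0, 41.1 and 43.1 FPKM in hND6. For both chains the hND6 values lay inside the range of mCherry, where mCherry 2 was highest and mCherry 1 lowest. The differences were 0.23 ± 0.19 for Col1a2 and 0.37 ± 0.26 for Col1a1 on the log2 scale (SE; limma adjusted p = 0.607 and 0.549). Without mCherry 2 the groups of both genes no longer overlapped and the differences were 0.43 and 0.65 (limma adjusted p = 0.336 and 0.326). The share of all genes without overlap was also higher in that fit, as given below. Without mCherry 1 the differences were smallest, at 0.07 for Col1a2 and 0.09 for Col1a1.

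Type III collagen (Col3a1, chromosome 1, 45311538 to 45349706) joins type I in extensible tissue such as the vessel wall. Its values were 24.2, 49.1 and 38.9 FPKM in mCherry and 30.9, 39.6 and 52.2 FPKM in hND6, with wide and overlapping groups (0.15 ± 0.30, limma adjusted p = 0.838). Type V collagen sets the diameter of type I fibrils. Col5a1 stood at 15.2, 19.3 and 11.7 FPKM in mCherry and at 13.2, 16.7 and 14.2 FPKM in hND6. Col5a2 stood at 7.15, 9.72 and 7.79 against 6.98, 8.93 and 8.70 FPKM. The groups overlapped for both type V chains, with log2 differences of -0.04 and 0.00 (limma adjusted p = 0.930 and 0.9999).

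Col11a2 and Col2a1 are best known from cartilage, where types II and XI share a fibril. Col11a2 (chromosome 17, 34039437 to 34066685) was the sixth most abundant collagen, at 15.6, 22.9 and 14.6 FPKM in mCherry and 16.9, 18.1 and 17.97 FPKM in hND6, with no difference beyond the spread (0.02 ± 0.17, limma adjusted p = 0.959). Col2a1 (chromosome 15, 97975602 to 98004695) was low, at 1.45, 1.34 and 1.19 FPKM in mCherry and 1.72, 2.16 and 1.98 FPKM in hND6. Every hND6 value of Col2a1 was above every mCherry value, a log2 difference of 0.42 ± 0.16 that did not pass (limma adjusted p = 0.3002). It rested on 607 reads in mCherry and 734 in hND6. The 7 markers of cartilage and bone summed to between 5.43 and 8.26 FPKM in every library. Most of this came from Comp and Sp7, at means of 3.33 and 2.72 FPKM, and the other 5 averaged under the level for testing. In Comp the groups overlapped (log2 difference 0.27), and in Sp7 all hND6 values were higher (0.26, limma adjusted p = 0.406); their part in the Col2a1 difference was not tested. The remaining fibrillar genes Col5a3, Col27a1 and Col11a1 averaged 4.97, 4.31 and 1.78 FPKM with overlapping groups, and Col24a1 averaged 0.0680 FPKM, under the level for testing.

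**Figure D2:**
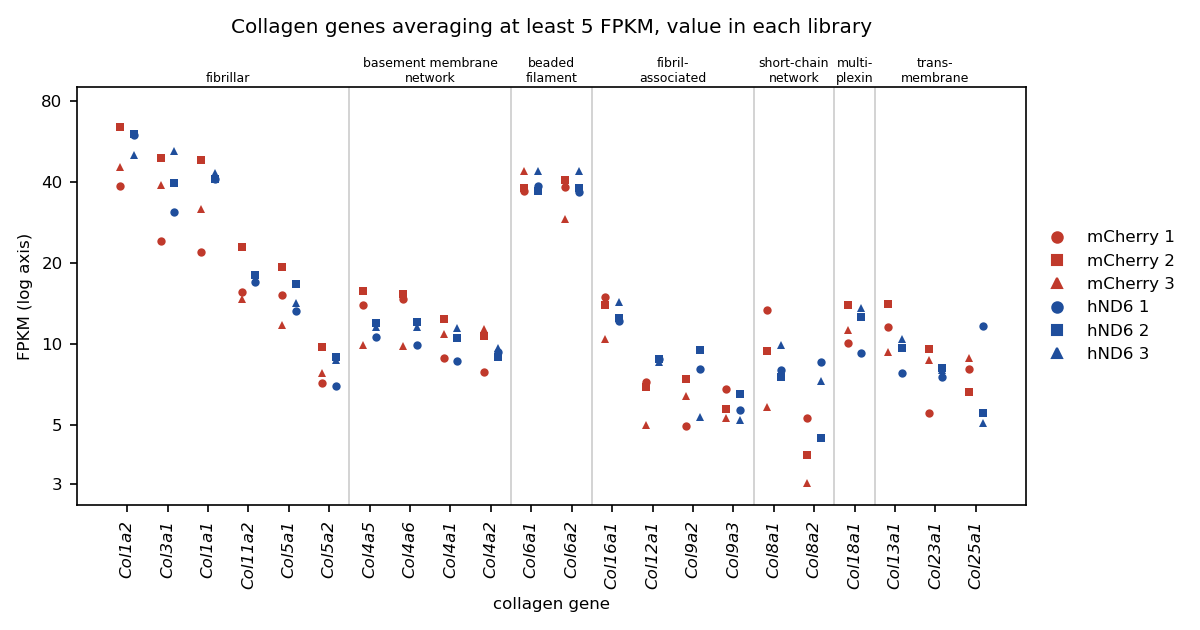
FPKM on a log axis of the 22 collagen genes that averaged at least 5 FPKM, by class and level along the x axis, 1 point per library (red mCherry, blue hND6; circle, square and triangle for replicates 1, 2 and 3). Red and blue points overlap for every gene shown except Col12a1, where the hND6 points lie at 8.51 to 8.79 above mCherry at 4.99 to 7.19.

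Type IV chains summed to 48.0 ± 6.29 FPKM in mCherry and 43.0 ± 3.19 in hND6. As a share of all collagen FPKM they came to 12.6%, 11.4% and 11.4% in mCherry 1 to 3 and to 9.80%, 10.7% and 10.1% in hND6 1 to 3, without overlap between groups. This share was noticed after the values were seen and was not tested. Col4a1 and Col4a2 together form the network of nearly all basement membranes. Col4a1 (chromosome 8, 11198423 to 11312826) stood at 8.85, 12.4 and 10.8 FPKM in mCherry and 8.64, 10.5 and 11.4 FPKM in hND6. Col4a2 (chromosome 8, 11312805 to 11449287) stood at 7.81, 10.6 and 11.4 against 9.29, 8.95 and 9.59 FPKM. Both overlapped between groups, with log2 differences of -0.06 ± 0.16 and -0.08 ± 0.15 (SE; limma adjusted p = 0.875 and 0.831). Col4a5 and Col4a6, whose network is found in smooth muscle and other special basement membranes, were as abundant per exon length as this main pair.

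Col4a5 (X chromosome, 141475385 to 141689234) stood at 13.9, 15.6 and 9.89 FPKM in mCherry and 10.6, 11.9 and 11.5 FPKM in hND6. Col4a6 (X chromosome, 141165403 to 141474076) stood at 14.7, 15.3 and 9.82 against 9.89, 12.1 and 11.5 FPKM. In both genes mCherry 1 and 2 were higher than all hND6 libraries and mCherry 3 was lower than all of them, so the groups overlapped through 1 library. With all libraries the log2 differences were -0.18 ± 0.17 and -0.22 ± 0.18 (limma adjusted p = 0.651 and 0.609). Without mCherry 3 they were -0.37 and -0.42, with no overlap between groups and limma adjusted p = 0.113 and 0.112. The share of all genes without overlap was also higher in that fit, as given below. With the trend on gene span taken out the differences of Col4a5 and Col4a6 were 0.03 and 0.04, and both signs turned (limma adjusted p = 0.966 and 0.965). The library mCherry 3 held far more RNA of forebrain neurons: the 7 markers of these cells summed to 398 FPKM there, to 21.1 and 14.1 FPKM in mCherry 1 and 2, and to 110, 19.8 and 40.6 FPKM in hND6 1 to 3. The part of these transcripts in the type IV values was not tested. Col4a3 and Col4a4, the chains of kidney and lung basement membranes that share a start region, averaged 0.542 and 0.478 FPKM, and Col4a4 fell under the level for testing.

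Head-to-head partners stood at similar levels in each library. The ratio of Col4a1 to Col4a2 FPKM was between 0.930 and 1.19 over the 6 libraries, and that of Col4a5 to Col4a6 was between 0.949 and 1.07. For the pair at low level, Col4a3 to Col4a4, it was between 0.796 and 1.34. The ratios of Col4a5 to Col4a6 and of Col4a3 to Col4a4, like that of type VIII below, were chosen after the values were seen and are described without a test.

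Type VI chains summed to 80.5 ± 4.50 FPKM in mCherry and 83.3 ± 7.67 in hND6. Col6a1 (chromosome 10, 76708792 to 76726168) varied little, at 36.9, 38.0 and 43.9 FPKM in mCherry and 38.6, 37.0 and 43.8 FPKM in hND6. Its log2 difference was 0.01, with a 95% interval from -0.24 to 0.26 (limma adjusted p = 0.976). Col6a2 (chromosome 10, 76597835 to 76623325) stood at 38.3, 40.6 and 29.1 FPKM in mCherry and 36.7, 37.9 and 43.7 FPKM in hND6 (0.14 ± 0.14, limma adjusted p = 0.686).

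Col6a3, the longest chain of the type VI trimer, stood at 2.83, 5.50 and 2.94 FPKM in mCherry and at 2.66, 3.92 and 3.87 FPKM in hND6 (-0.06 ± 0.27, limma adjusted p = 0.937). The chains are known to join in equal numbers. Per exon length, Col6a3 RNA was between 0.0671 and 0.145 of Col6a1 in each library. Col6a6, named as the end of the family's range, averaged 1.11 ± 0.454 FPKM in mCherry and 0.482 ± 0.291 FPKM in hND6 (SD, n = 3 each). The groups of Col6a6 overlapped only by mCherry 1, and its difference of -0.72 ± 0.35 did not pass (limma adjusted p = 0.386). The neighbours Col6a4 and Col6a5 had 45 and 36 reads over the 6 libraries and were not tested.

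The 6 chain ratios set for testing differed between groups by less than the spread between libraries. Col1a1 stood at 0.673 ± 0.0954 of Col1a2 in mCherry and at 0.741 ± 0.0983 in hND6 (SD, n = 3 each; exact permutation p = 0.6). Col3a1 stood at 1.12 ± 0.103 of Col1a1 in mCherry and 0.975 ± 0.229 in hND6 (exact permutation p = 0.4). The ratio of Col6a1 to Col6a2 was between 0.934 and 1.05 in 5 libraries and 1.51 in mCherry 3. Col5a2 was between 0.472 and 0.664 of Col5a1. Over the 6 ratios the Benjamini-Hochberg adjusted p from the exact permutation test was 1 for each, and 0.1 was the smallest unadjusted p that 3 against 3 libraries allow.

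**Figure D3:**
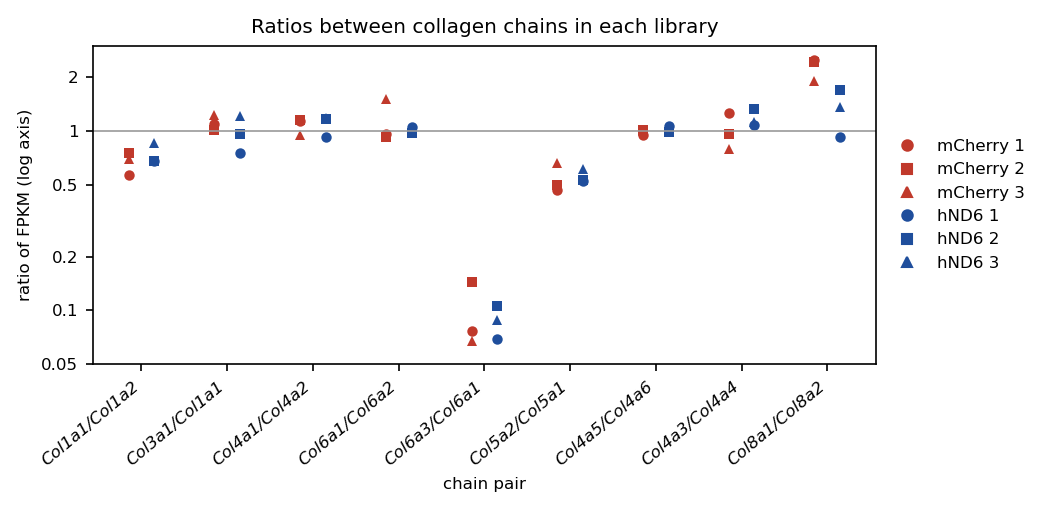
FPKM of the first gene over FPKM of the second, on a log axis, for 9 pairs of collagen chains, 1 point per library (red mCherry, blue hND6; symbols mark replicates). Points of the head-to-head pairs Col4a1/Col4a2 and Col4a5/Col4a6 lie near 1 in every library, those of Col6a3/Col6a1 between 0.0671 and 0.145, and those of Col8a1/Col8a2 fall into 2 separate groups.

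Fibril-associated collagens, which sit on the surface of fibrils, summed to 42.5 ± 3.94 FPKM in mCherry and 43.5 ± 0.771 in hND6. Col12a1 (chromosome 9, 79598991 to 79718518), found on type I fibrils of dense tissue, stood at 7.19, 6.93 and 4.99 FPKM in mCherry and at 8.78, 8.79 and 8.51 FPKM in hND6. It was the only member of at least 5 FPKM whose groups did not overlap, with mCherry 3 furthest below. The log2 difference was 0.44 ± 0.15 (SE), with a 95% interval from 0.08 to 0.79, and limma's adjusted p was 0.267. Scaled to a constant sum per library (TPM scale), which moved the median of all genes to -0.14, the difference of Col12a1 was 0.30 and its groups overlapped.

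Col16a1, a minor component of thin fibrils, stood at 14.9, 13.9 and 10.4 FPKM in mCherry and at 12.2, 12.5 and 14.3 FPKM in hND6 (0.00 ± 0.15). Type IX chains decorate type II fibrils in cartilage and vitreous. Col9a2 stood at 4.94, 7.38 and 6.38 FPKM in mCherry and 8.05, 9.49 and 5.32 FPKM in hND6 (0.25 ± 0.24). Col9a3 stood at 6.77, 5.69 and 5.30 against 5.65, 6.49 and 5.19 FPKM (-0.03 ± 0.13). Groups overlapped for these 3 genes (limma adjusted p = 0.993, 0.655 and 0.930). Of the other fibril-associated genes, Col20a1 had the lowest difference, -0.62 ± 0.30, at a mean of 4.04 FPKM in mCherry and 2.62 in hND6 (limma adjusted p = 0.387). Part of Col20a1 is overlapped on the same strand by 9230112E08Rik, which had 1213 reads over the 6 libraries beside the 2309 of Col20a1, so that its value is uncertain. Col9a1, Col22a1, Col14a1 and Col19a1 averaged between 0.625 (Col19a1) and 3.02 FPKM (Col9a1), with overlapping groups. Col19a1, which is transcribed in neurons, was highest in mCherry 3 and hND6 1, at 1.84 and 1.09 FPKM against at most 0.329 FPKM elsewhere. These libraries also had the 2 highest sums of forebrain neuron markers. The part of neuron RNA in the values of Col19a1 was not tested.

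Type VIII collagen forms the hexagonal lattice of Descemet's membrane and is made by vessel cells. Col8a1 (chromosome 16, 57624258 to 57754737) stood at 13.3, 9.42 and 5.79 FPKM in mCherry and 7.96, 7.54 and 9.91 FPKM in hND6 (-0.09 ± 0.29, limma adjusted p = 0.899). Col8a2 (chromosome 4, 126286793 to 126314330) stood at 5.29, 3.85 and 3.04 FPKM in mCherry and 8.54, 4.45 and 7.26 FPKM in hND6. Col8a2 had the highest fold change of the family, 0.65 ± 0.28, with groups that overlapped through hND6 2 and an adjusted p of 0.339 (limma). The ratio of Col8a1 to Col8a2 was 2.51, 2.45 and 1.90 in mCherry 1 to 3 and 0.932, 1.70 and 1.36 in hND6 1 to 3. These ratios did not overlap between groups, and the difference was not tested because the pair was chosen after its values were seen. Col10a1, the third short-chain gene and a marker of hypertrophic cartilage, had 6 reads, all of them in the library mCherry 3.

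The multiplexin Col18a1, whose C-terminal piece is endostatin, stood at 10.1, 13.9 and 11.3 FPKM in mCherry and at 9.21, 12.6 and 13.6 FPKM in hND6 (0.00 ± 0.18, limma adjusted p = 0.996). Col15a1, its relative in vessel basement membranes, averaged 4.998 FPKM in mCherry and 4.75 in hND6. Neither multiplexin differed between groups beyond its spread.

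Transmembrane collagens cross the cell surface and can be shed. Col13a1, found at adhesion sites, stood at 11.5, 14.02 and 9.32 FPKM in mCherry and 7.79, 9.63 and 10.4 FPKM in hND6 (-0.30 ± 0.18, limma adjusted p = 0.461). Col23a1 stood at 5.51, 9.57 and 8.67 against 7.49, 8.13 and 7.96 FPKM (0.02 ± 0.20, adjusted p = 0.965). Col25a1, a neuronal collagen, stood at 8.02, 6.60 and 8.87 FPKM in mCherry and at 11.6, 5.53 and 5.09 FPKM in hND6 (-0.16 ± 0.31, limma adjusted p = 0.837). All 3 genes overlapped between groups. The highest values of Col25a1 stood in hND6 1 and mCherry 3, with mCherry 1 close behind at 8.02 FPKM. The part of neuron RNA in the values of Col25a1 was not tested. Col17a1, a collagen of skin hemidesmosomes, had 16 reads in all. Of the remaining genes Col26a1 and Col7a1, the anchoring fibril of skin, averaged 3.18 and 0.574 FPKM with overlapping groups, and Col28a1 had 42 reads.

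**Figure D4:**
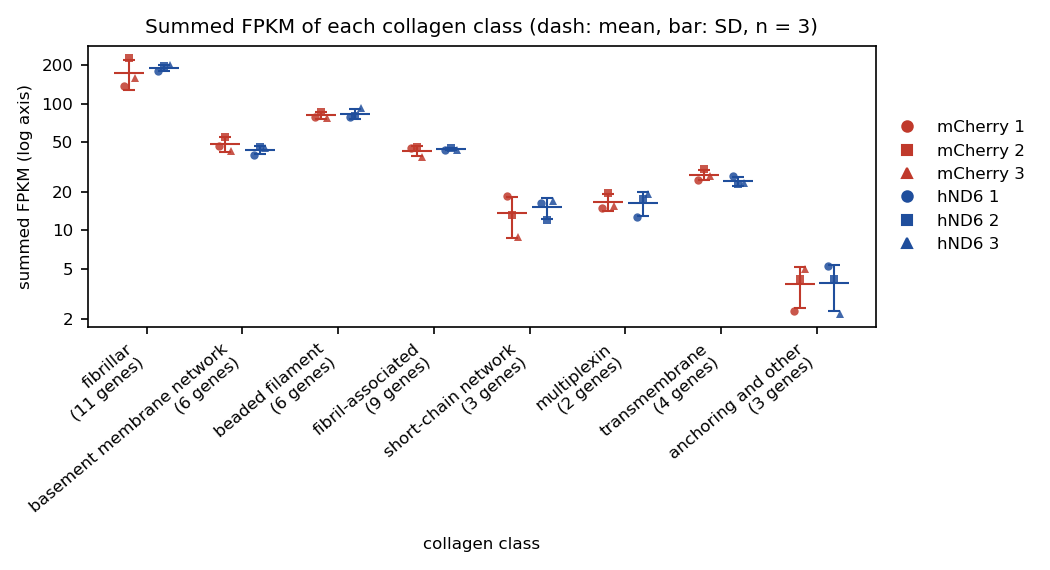
Summed FPKM of each of the 8 collagen classes on a log axis, 1 point per library, with the mean as a dash and the SD as a bar (n = 3; red mCherry, blue hND6). The 2 groups overlap in every class, from the fibrillar class at 138 to 227 in mCherry down to the anchoring and other class at 2.30 to 4.92.

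Levels also varied from library to library. The library mCherry 2 held the highest value of 17 of the 37 tested members, and their median deviation from the mean over libraries was 0.23 there on the log2 scale. In mCherry 3, which held the lowest value of 12 members, it was -0.13, and in the other 4 libraries it was between -0.05 and 0.04. Members without overlap between groups depended on single libraries too. They numbered 8 without mCherry 3 (2 higher and 6 lower in hND6, against 41.2% of all genes in either direction), 7 without mCherry 1 (3 and 4, against 33.8%), and 5 without mCherry 2 (all higher, against 31.3%). Without hND6 2 they numbered 4 (3 higher and 1 lower, against 27.9%), and without hND6 3 they numbered 5 (3 and 2, against 29.0%). Without hND6 1 there were 3 (2 and 1, against 35.0%), where Col25a1 joined as lower in hND6. No member passed the adjusted threshold in any of these fits.

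The genes that make, bind and degrade collagen were followed in 7 lists. Of the 18 genes for chain modification and folding, all tested, 0 passed the threshold, 6 were without overlap and higher in hND6 (12.6% of all genes tested were), and the median log2 difference was 0.08. P4hb, the beta subunit of prolyl 4-hydroxylase, stood at 54.4, 53.1 and 47.6 FPKM in mCherry and 64.5, 66.1 and 72.6 FPKM in hND6 (0.39 ± 0.09, limma adjusted p = 0.178). Serpinh1, the collagen chaperone HSP47, stood at 30.7, 35.9 and 34.8 against 39.9, 39.3 and 47.7 FPKM (0.32 ± 0.11, adjusted p = 0.270). Ppib, the cyclophilin of the hydroxylation complex, was the most abundant, at 78.2 ± 8.10 FPKM in mCherry and 91.5 ± 4.98 in hND6 (0.23 ± 0.10, adjusted p = 0.352). In these 3 genes every hND6 value was above every mCherry value, and none passed.

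Of 14 genes for propeptide removal and crosslinking 12 were tested, with 2 higher and 2 lower without overlap (12.6% and 10.2% of all genes), a median of 0.04 and 0 past the threshold. Pcolce, the enhancer of the C-propeptide protease, was the most abundant, at 30.8, 37.1 and 35.7 FPKM in mCherry and 45.3, 50.7 and 44.5 FPKM in hND6 (0.44 ± 0.10, limma adjusted p = 0.178). The crosslinking oxidase Loxl1 stood at 3.99, 6.24 and 5.76 against 6.84, 7.74 and 7.47 FPKM (0.45 ± 0.17, adjusted p = 0.3003). The 2 genes with lower hND6 values in every library were Bmp1, the C-propeptide protease itself (-0.26), and Pxdn, which crosslinks type IV collagen (-0.24); they are named after their values were seen.

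Fibril-binding proteoglycans had the highest median of the lists, 0.37 over 6 tested genes of 9, of which 6 lay above 0 and 3 were higher without overlap (12.6% of all genes). Bgn (biglycan) stood at 33.4, 35.4 and 29.1 FPKM in mCherry and 45.4, 44.8 and 44.95 FPKM in hND6, with the smallest adjusted p of the 7 lists (0.46 ± 0.09, limma adjusted p = 0.155). Dcn (decorin), the most abundant, stood at 57.8, 79.6 and 71.6 FPKM in mCherry against 80.9, 98.0 and 88.7 FPKM in hND6 (0.36 ± 0.14, adjusted p = 0.304). No proteoglycan passed the threshold. Kera was listed at 0 in every library.

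Basement membrane partners (15 tested of 16) had 1 gene without overlap, Sparc (22.8% of all genes in either direction), and a median of -0.07. With the trend on gene span taken out the median was 0.08, with 11 of 15 genes above 0, and without mCherry 2 it was 0.05, with 10 of 15 above 0. Sparc, a matrix protein that binds collagen, stood at 403, 391 and 372 FPKM in mCherry and 416, 498 and 524 FPKM in hND6 (0.30 ± 0.13, limma adjusted p = 0.3499), and its difference was -0.07 after quantile normalisation. Agrn, a heparan sulfate proteoglycan, averaged 30.1 FPKM in mCherry and 27.6 in hND6 with overlapping groups (-0.12, adjusted p = 0.518).

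Collagen receptors (9 tested of 10) had a median of 0.18 and 1 gene without overlap (22.8% of all genes), the integrin chain Itgb1 (46.4 ± 3.38 against 52.7 ± 1.97 FPKM, limma adjusted p = 0.356). The receptor kinase Ddr1, the most abundant, averaged 99.3 and 118 FPKM (0.25, adjusted p = 0.493), and Itga11, the fibroblast receptor for type I collagen, 2.35 and 3.25 FPKM (0.41, adjusted p = 0.375). Genes of collagen breakdown and its inhibitors (10 tested of 12) had a median of 0.20 and 3 genes without overlap, all higher in hND6 (12.6% of all genes). Among them, the protease Ctsk averaged 6.58 and 8.15 FPKM (0.29, limma adjusted p = 0.303) and Mmp14, a membrane collagenase, 20.3 and 23.7 FPKM (0.22, adjusted p = 0.317). Timp3, the inhibitor and the most abundant, averaged 105 and 119 FPKM (0.18, adjusted p = 0.568).

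Fibrosis signals (11 tested of 11) had a median of 0.08 and 0 genes without overlap (22.8% of all genes). Postn, a matrix protein of scar tissue, had a difference of -0.44 (3.50 against 2.43 FPKM, limma adjusted p = 0.347), and Acta2, smooth muscle actin, had one of 0.53 (8.48 against 12.1 FPKM, adjusted p = 0.421). Fn1 (fibronectin) was the most abundant at 148 ± 29.1 and 152 ± 27.7 FPKM (0.04, adjusted p = 0.936). Across the 7 lists 0 genes passed the threshold. On the TPM scale the median of chain modification was -0.059 (2 genes higher and 1 lower without overlap) and that of propeptide removal -0.089, against -0.14 for all genes on that scale. The medians of basement membrane partners and fibrosis signals were then -0.21 and -0.06. Receptors and breakdown genes had 0 without overlap, and all 6 proteoglycans stayed above 0 with a median of 0.23 and 1 gene without overlap.

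**Figure D5:**
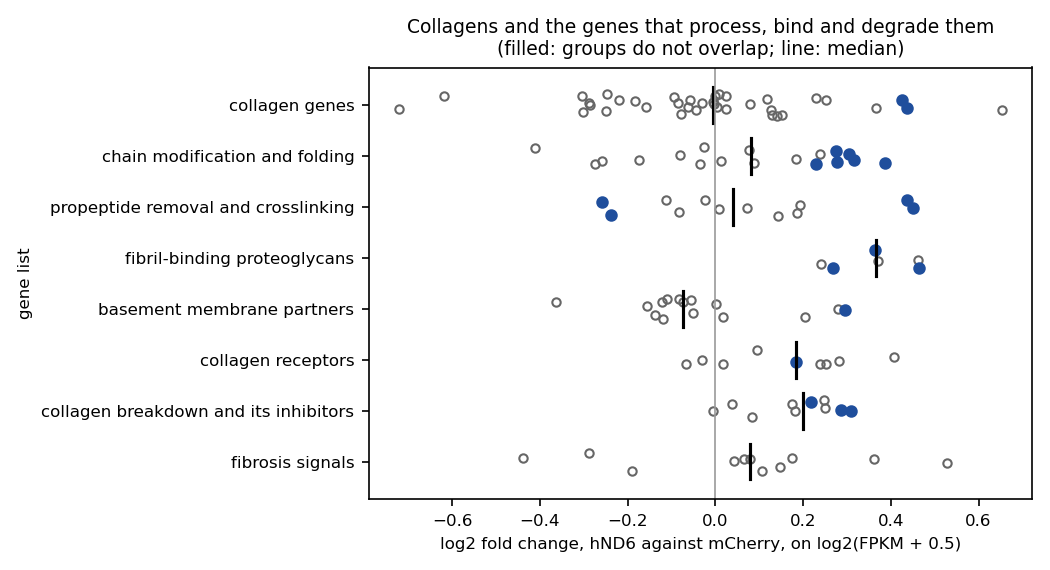
Log2 fold change, hND6 against mCherry on log2(FPKM + 0.5), of each tested gene in the collagen family and 7 partner lists; filled points are genes whose groups do not overlap and black lines are medians. Collagens centre on 0.00, and all 6 tested proteoglycans lie to the right of 0 with a median of 0.37.

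Markers of the cells that make collagen were read in the same libraries. The 10 markers of meningeal and perineurial fibroblasts all had differences above 0 (median 0.32), 3 of them higher without overlap (12.6% of all genes), and summed to 453, 540 and 547 FPKM in mCherry against 625, 703 and 704 FPKM in hND6. The most abundant were Mgp, an inhibitor of calcification (0.73, limma adjusted p = 0.148, and 0.52 once the trend on gene span is taken out), and Igfbp6 (0.33, adjusted p = 0.454). Summed FPKM over all genes was also higher in hND6, at 417385 to 450685 against 365375 to 411248 in mCherry. On the TPM scale, which evens out these sums, 8 of the 10 markers lay above 0, with a median of 0.18. Dcn, Lum and Ogn stand in this list and in that of the proteoglycans, so the lists are not independent. The 8 pericyte markers summed to 110 to 159 FPKM in mCherry and 151 to 200 FPKM in hND6, and the 7 endothelial markers to 64.2 to 70.5 and 53.4 to 68.5 FPKM. The 5 smooth muscle markers summed to 29.9 to 34.1 and 30.8 to 58.3 FPKM. The part of these cells in the values of Bgn, Dcn, Pcolce and the collagens was not tested.

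Markers of the labelled tissue were high. The oligodendrocyte genes summed to 4478 to 6723 FPKM in mCherry and 6394 to 7424 FPKM in hND6. The astrocyte genes summed to 1240 to 1674 FPKM in mCherry and 1654 to 2035 FPKM in hND6. Skeletal muscle markers summed to at most 4.54 FPKM and the Schwann cell marker Pmp2 was listed at 0, although Sox10 and Mal of that list are also made by oligodendrocytes and reached 60.3 to 107 and 264 to 441 FPKM. Pigment cell genes summed to 5.20 to 14.5 FPKM, most of it from Rlbp1 at 4.66 to 9.46 FPKM. Rpe65 stood at 5.48 FPKM in mCherry 1 and at most 2.01 FPKM elsewhere, and the other 5 of this list averaged under the level for testing. Photoreceptor genes summed to 192 FPKM in hND6 2 and to at most 6.13 FPKM elsewhere. Red cell genes summed to 180 to 467 FPKM in mCherry and 1365 to 2603 in hND6, and those of antibody-producing cells to 7.05 to 17.1 and 52.4 to 162 FPKM, with 2 of the latter past the threshold, Jchain among them (log2 difference 5.01, limma adjusted p = 0.0226). The part of blood and plasma cell RNA in the collagen values was not tested.

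What the counting covered limits comparisons of level between members. Of 18 genes that overlap 15 members on the same strand, 17 had no read in any library (the other is the one at Col20a1), and the sources used here do not say whether reads in introns were counted. The span on the chromosome is between 2.27 (Col10a1) and 75.8 (Col19a1) times the exon length, with 62.5 in Col25a1, 46.4 in Col4a6 and 2.84 in Col1a1. The part of intronic reads in these levels was not tested.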

How the data were processed

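The deposited values are FPKM per gene, which the authors computed for each library (per the labels). Per the submitters' processing notes, the tools named are CASAVA 1.4, Trim Galore, STAR and HTSeq with builds mm10 and GRCm38; their roles, the annotation release and the counting mode are not given in the sources used here. The 6 single-library tables equalled the combined table. FPKM times exon length gave whole reads for at least 99.99% of values (within 0.1 read), which set the depths.

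From these values, genes averaging at least 0.5 FPKM were tested on log2(FPKM + 0.5) with limma 3.58.1 (R 4.3.3) with trend, without covariates, and adjusted over all 16157 by Benjamini-Hochberg. The fold change on this scale understates changes of low genes. Sums and ratios were compared by exact two-sided permutation tests over libraries (scipy 1.17.1). Scripts were tested on simulated data. Members, lists and tests were chosen with earlier results of these data known. Values are printed per library for members averaging at least 5 FPKM, members of a tested ratio, and lower ones of unadjusted p under 0.05 without overlap. In partner lists the 2 genes of smallest p and the most abundant gene are named, some with group means only. Coding exons and repeats came from GENCODE transcripts, promoters from RefSeq (GRCm38.p6); 9 members have no promoter entry here. Alternatives covered pseudocounts, filters, scalings, test settings, voom on recovered reads, gene span trend, replicate block and libraries left out.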

Additional observations from a re-analysis of the deposited data

How the results depend on the processing

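In every alternative 0 collagen genes passed the adjusted threshold (limma; smallest adjusted p between 0.112 and 0.696), and 0 of the 24 collagens printed with a value for every library did. The edgeR alternative was not run, because the deposited values are FPKM. Of these 24 genes, 17 changed the sign of their difference in at least 1 alternative and 7 did not (Col1a1, Col1a2, Col2a1, Col8a2, Col9a2, Col12a1 and Col13a1). The median difference of collagens was between -0.09 and 0.04 with 1 library left out, 0.08 with the trend on gene span removed (all genes -0.02), and -0.14 on the TPM scale (all genes -0.14), where 1 member was higher and 2 lower without overlap (5.37% and 18.9% of all genes on that scale). Members without overlap numbered 2, between 3 and 8 with 1 library left out, and 10 (2 higher and 8 lower, against 53.7% of all genes) without mCherry 3 and hND6 1. Replicate numbers were not taken as pairs in the main fit. Deviations of same-numbered libraries from their group means correlated at -0.416, 0.363 and -0.197, and those of mCherry 3 and hND6 1 at 0.555. With 3 libraries per group these values cannot show whether a batch was shared by number. With the replicate block 0 collagens passed, 3 had an unadjusted p under 0.05, and the median stayed -0.004.

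Medians of partner lists on the TPM scale were -0.059 for chain modification, -0.089 for propeptide removal, 0.23 for proteoglycans, 0.039 for receptors and 0.061 for breakdown. That of propeptide removal was 0.14 with voom and 0.20 with the span trend removed, with or without the replicate block, and between -0.0013 (without mCherry 1) and 0.17 (without mCherry 2) with 1 library left out. That of proteoglycans was then between 0.26 (without hND6 2) and 0.45 (without mCherry 2). The causes were not tested.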

Other observations

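The proportions of collagen chains known from cartilage can be given per exon length. Col11a2 exceeded Col11a1 by a ratio of 6.56 to 14.5 and Col2a1 by a ratio of 8.37 to 17.1 over the 6 libraries. Col9a1, which joins Col9a2 and Col9a3 in a trimer, stood at 0.384 to 0.680 of Col9a3, while Col9a2 stood at 0.729 to 1.46 of it. Col9a1 lies 11309 bases from the end of Col19a1 and Col3a1 lies 24614 bases from that of Col5a2, both tail to tail on chromosome 1. In each of these neighbour pairs the members differed in level, with Col3a1 at a mean of 39.1 and Col5a2 at 8.21 FPKM. These pairs were chosen after their values were seen, and no difference between groups was tested in them.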
